A study of Rattus norvegicus with 8 samples.

Results

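The genes described here encode the ion exchangers, cotransporters and pumps that move sodium, potassium, calcium, protons, bicarbonate and chloride across cell membranes. They were chosen by symbol as the Slc4, Slc8, Slc9, Slc12, Slc24 and Slc26 transporters, the alpha and beta subunits of the sodium pump (Atp1a, Atp1b), the calcium pumps of the plasma membrane (Atp2b) and the FXYD proteins, without Slc8a1. Of 14506 genes with a probe set of their own, 58 met this rule, each with a single probe set.

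The cells were primary ventricular cardiomyocytes of newborn rats in culture, in 2 groups of 4 arrays. The treated group had received the miR-222 precursor and the control group a precursor of scrambled sequence, each at 0.4 µM and with the same lipid reagent, 48 h before RNA was taken. Cells process such a synthetic precursor into the mature microRNA, which the array does not measure. Since no label ties an array to a culture of its own, a p-value here reflects only how far these samples spread, and that spread may be technical. Values are log2 intensities of a probe set, and a difference is miR-222 minus control on that scale. All 7 cardiomyocyte markers lay above the array medians of 7.66 to 7.77 log2 units (Tnnt2 at 13.36 and Myh6 at 13.36 in control cells), and 1 of them, Ryr2, was lower with miR-222 (difference -0.14, adjusted p = 0.042). The estimates of all 7 were below 0, and their summed intensity was 63709 to 65031 in control and 60677 to 61840 with miR-222.

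The sodium pump exports sodium and imports potassium at the cost of ATP, and the gradient it makes drives most of the other carriers. Sodium-calcium exchange and the calcium pump bring calcium out of the cell after each beat, sodium-proton exchange and bicarbonate transport keep the pH, and the cation-chloride cotransporters set cell volume and chloride. Several Slc9 and Slc26 members work in the membranes of endosomes, the Golgi apparatus or epithelia.

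The mature strand that carries the treatment is shown with that of its relative miR-221, because both share the seed by which a microRNA pairs with its targets. Both sequences are from RefSeq, 5′ to 3′, with bases 2 to 8 in capitals. The gene of the first lies on chromosome X of GRCr8, where the mature strand spans chrX:6022682-6022702 (plus strand), and the second spans chrX:6023246-6023268 (plus strand).
rno-miR-222-3p: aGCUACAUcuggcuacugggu
rno-miR-221-3p: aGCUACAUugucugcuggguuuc
The seed is the same in both, and the strands differ downstream of it.

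The comparison asks which of these transport genes differed in level between cells with the miR-222 precursor and cells with the control precursor. Slc24a3, a sodium-calcium-potassium exchanger, was 1.93-fold higher, the endosomal sodium-proton exchanger gene Slc9a9 was 1.66-fold higher and the anion exchanger gene Slc26a6 was 1.58-fold higher. The Golgi sodium-proton exchanger gene Slc9a8 had the largest fall, to a level 1.37-fold below control. In all, 11 of 58 members rose, 5 fell and 42 did not pass the test at an adjusted p under 0.05 in limma. The members called were 27.6% of those measured, against 24.7% of all genes, so the share called is close to the background.

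By direction, 19.0% of the members rose against 11.7% of all genes, and 8.62% fell against 13.0% of all genes. The median difference of the members was 0.07, with a range of -0.45 to 0.94, and that of all genes was 0.01. Whether the members differ from other genes in direction was not tested. Of the 58 members, 8 both passed the test and changed by at least 1.25-fold, and 3 passed with at least 1.5-fold. Over all genes 12.1% and 3.62% met these 2 conditions. The values of the groups did not overlap in 21 members (36.2%), among them all 16 called members, against 33.3% of all genes. Leaving out control replicate 2 reduced the 11 higher members to 7. Over all genes the share called also fell without that array, from 24.7% to 18.9%. It was 18.5% to 23.5% over the 8 arrays left out in turn. The 5 lower members became 3 when control replicate 2 or miR-222 replicate 1 was left out, and 2 when miR-222 replicate 4 or either of control replicates 1 and 3 was.

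**Figure D1:**
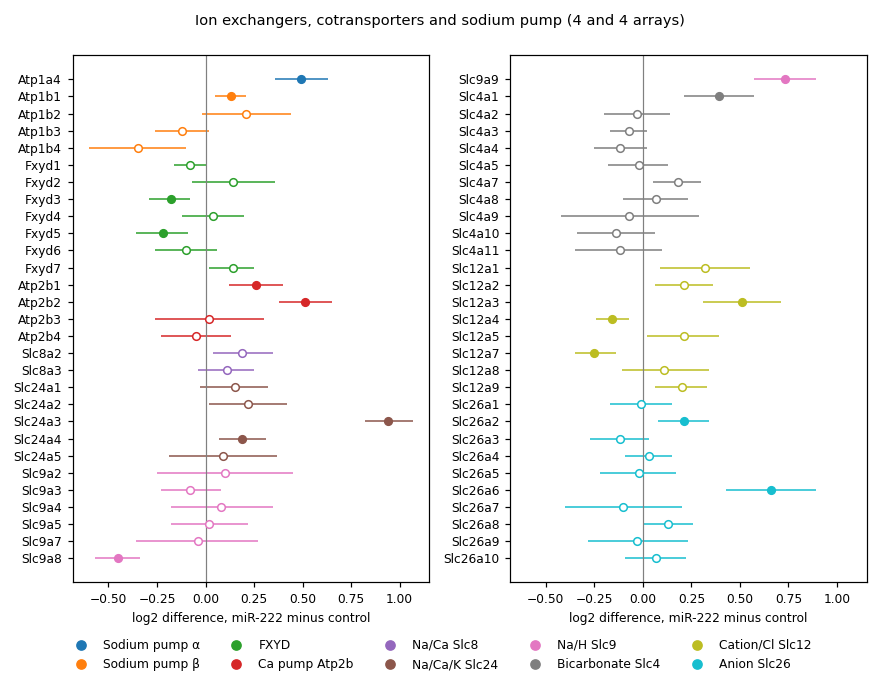
Log2 difference (miR-222 minus control, x axis) of the 58 members in order of family, with bars for the 95% interval of the limma fit over 4 and 4 arrays; filled points are past the adjusted threshold of 0.05. Slc24a3 at 0.94, Slc9a9 at 0.73 and Slc26a6 at 0.66 lie farthest to the right and Slc9a8 at -0.45 farthest to the left, and most open points lie near 0.

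**Figure D2:**
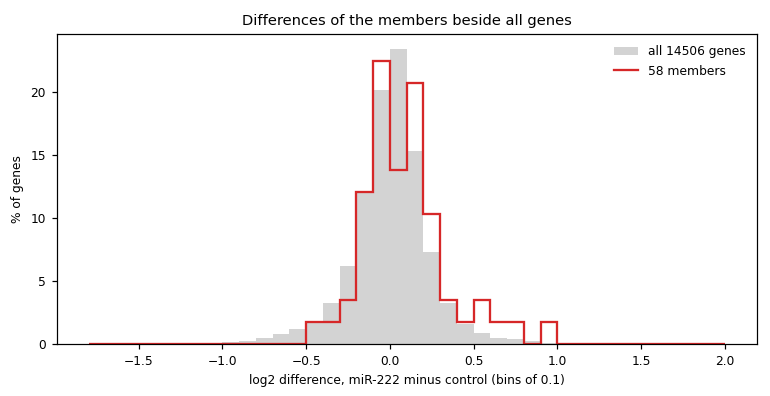
Share of genes (y axis, %) in bins of 0.1 of the log2 difference (x axis) for all 14506 genes (grey) and for the 58 members (red line). Both peak near 0, and the members run from -0.45 to 0.94 where all genes run from -1.71 to 1.91.

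In bulk RNA, fewer cells of a type and less RNA per cell cannot be told apart, and single markers of some other cell types moved with the groups. Over all these lists 5 of 39 measured markers were lower (12.8%), close to the 13.0% of all genes. Among fibroblast markers 2 of 8, Lum and Postn, were lower, and the summed intensity of the list was 8839 to 9817 in control and 7680 to 8787 with miR-222. Of 5 markers of smooth muscle and myofibroblasts Tagln was lower (sum 25583 to 25915 against 21326 to 24165), and of 4 endothelial markers Kdr was lower, with a difference of -1.51. The endothelial sum (1312 to 1408 against 736 to 849) follows Kdr, since Pecam1 at 0.04, Tek at -0.02 and Cdh5 at -0.13 did not pass. Cdh1 was lower among 4 epithelial markers, whose sums overlapped (1251 to 1491 against 1174 to 1353). The markers of macrophages, glia, red cells, epicardium and neurons did not pass. The part of these markers in the results was not tested. Within the miR-222 group, replicate 3 lay farthest from the controls in 8 of the 16 called members, and without that array 10 members were higher and 5 lower.

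The sodium pump is built of a catalytic alpha and a glycosylated beta subunit, with an FXYD protein as its regulator. Of 12 measured members with Atp1a, Atp1b or Fxyd symbols 2 rose, 2 fell and 8 did not pass, with a median difference of -0.02. The share called was 33.3%, against 24.7% of all genes. Atp1b1, the main beta subunit of the heart, read 12.81, 12.81, 12.80 and 12.81 in control replicates 1 to 4 and 12.96, 12.91, 12.96 and 12.94 in miR-222 replicates 1 to 4. All miR-222 arrays were above all controls, by a small margin. The rise was 0.13 (SE 0.03, adjusted p = 0.0319), or 1.10-fold. It is a bright probe set, near the highest value of the table of 14.00, where intensities can compress a fold change. Leaving out miR-222 replicate 2 kept the call and leaving out any of the other 7 arrays ended it (adjusted p = 0.0349 to 0.084), as did centring each array on its median, which gave 0.11 (adjusted p = 0.194).

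Atp1a4 encodes the alpha subunit known from sperm. It read 6.33, 6.49, 6.34 and 6.26 in control and 6.81, 6.91, 6.85 and 6.80 with miR-222, groups that did not overlap. Its rise of 0.49 (SE 0.06, adjusted p = 8.83e-04) is that of a dim probe set, below the median of every array, where background can compress a fold change. Among the remaining Atp1b genes, Atp1b3 measured -0.12 (95% interval -0.26 to 0.02) and Atp1b2, known from glia, 0.21 (-0.02 to 0.44). The muscle protein gene Atp1b4 measured -0.35 (-0.60 to -0.10, adjusted p = 0.0559). None of these 3 passed, though Atp1b4 did without control replicate 4 (adjusted p = 0.0449) or miR-222 replicate 1 (adjusted p = 0.019).

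Fxyd1 encodes phospholemman, the FXYD protein through which adrenergic signals act on the cardiac pump. The 4 control arrays read 13.37, 13.37, 13.37 and 13.38, and the 4 miR-222 arrays 13.27, 13.28, 13.28 and 13.32. The groups did not overlap, yet the difference of -0.08 (SE 0.03) did not pass (adjusted p = 0.15). With an intensity trend and robust variances in limma it passed (adjusted p = 0.00249). As in Atp1b1 the probe set is near the top of the scale.

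Both FXYD members that changed fell. Fxyd5, which encodes dysadherin, a protein that weakens cell adhesion, went from 9.05, 8.93, 9.01 and 9.11 in control to 8.71, 8.89, 8.83 and 8.78, a difference of -0.22 (SE 0.06, adjusted p = 0.0288). Fxyd3, known from epithelia and tumours, went from 7.69, 7.76, 7.73 and 7.64 to 7.51, 7.54, 7.58 and 7.44, a difference of -0.18 (SE 0.05, adjusted p = 0.0289). In neither did the groups overlap. Both calls ended when either of control replicates 1 and 3 or of miR-222 replicates 1 and 4 was left out, that of Fxyd5 also with control replicate 4 left out and that of Fxyd3 with control replicate 2 (adjusted p = 0.0254 to 0.0785 and 0.0278 to 0.081 over the 8 arrays left out), and that of Fxyd3 with an intensity trend too (adjusted p = 0.0798). In GRCr8, Fxyd5, Fxyd7, Fxyd1 and Fxyd3 follow one another on chromosome 1, with 1 other protein-coding gene between the last pair. Fxyd7, the brain member between Fxyd5 and Fxyd1, measured 0.14 and did not pass (adjusted p = 0.117). The renal members Fxyd2 at 0.14 and Fxyd4 at 0.04, and Fxyd6 at -0.10, did not pass either.

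Calcium leaves the cell by the Atp2b pumps and by exchange for sodium. Of 11 measured members of Atp2b, Slc8 and Slc24, 4 rose and 7 did not pass, and the median difference was 0.19. Estimates were above 0 in 10 of the 11, all but Atp2b4. Over all genes 11.7% rose, 7710 of 14506 estimates were above 0 and the median was 0.01. Slc8a1, which the rule leaves out, fell. Whether these 11 members differ from other genes in direction was not tested. Slc24a3 encodes an exchanger that moves calcium and potassium out against sodium and is known from brain and smooth muscle. It read 7.56, 7.54, 7.54 and 7.46 in control and 8.50, 8.34, 8.51 and 8.53 with miR-222. The lowest treated array, replicate 2, was still well above the highest control. The control values lay below every array median and the treated values above. The rise was 0.94 (SE 0.05, adjusted p = 4.97e-05), the largest among the members, and lay between 0.92 and 0.99 with any single array left out.

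Other Slc24 members rose less or did not pass. Slc24a4, known from olfactory neurons and enamel, read 6.95, 6.99, 6.97 and 7.10 in control and 7.23, 7.24, 7.12 and 7.16 with miR-222. The highest control array, replicate 4, came within a few hundredths of the lowest treated array. The difference was 0.19 (SE 0.05, adjusted p = 0.0367), and the call held only with control replicate 4 or miR-222 replicate 3 left out (adjusted p = 0.0264 to 0.102 over the 8 arrays left out in turn). It was also lost with each array centred on its median (adjusted p = 0.0632) and with an intensity trend (adjusted p = 0.106). The photoreceptor and neuronal exchangers Slc24a1 and Slc24a2 measured 0.15 and 0.22, and Slc24a5, known from melanosomes, 0.09. The sodium-calcium exchangers Slc8a2 and Slc8a3, known from brain, were dim and measured 0.19 (adjusted p = 0.0861) and 0.11 (adjusted p = 0.32). Their cardiac relative Slc8a1, left out by the rule, fell by 0.21 (SE 0.05, adjusted p = 0.0212), a call that ended when any control array but replicate 3 was left out (adjusted p = 0.027 to 0.0663 over the 8 arrays).

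Of the 4 plasma membrane calcium pumps 2 rose. Atp2b2, the isoform known from neurons and hair cells, read 8.09, 8.27, 8.01 and 8.14 in control and 8.62, 8.64, 8.65 and 8.66 with miR-222. The treated arrays lay close together and apart from the controls. The rise was 0.51 (SE 0.06, adjusted p = 7.11e-04), or 1.43-fold. Atp2b1, the pump found in nearly all cells, read 9.59, 9.60, 9.62 and 9.59 in control and 9.88, 9.90, 9.96 and 9.70 with miR-222. Here treated replicate 4 lay between the controls and the other treated arrays. Atp2b1 rose by 0.26 (SE 0.06, adjusted p = 0.0195), and leaving out control replicate 1, control replicate 2 or treated replicate 1 ended the call (adjusted p = 0.00423 to 0.0556 over the 8 arrays left out).

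Atp2b4, the other isoform of heart muscle, read 8.09, 8.07, 8.18 and 8.03 in control and 8.05, 8.13, 7.83 and 8.16 with miR-222. The groups overlapped, with treated replicate 3 below the rest. The difference was -0.05 (95% interval -0.23 to 0.13, adjusted p = 0.721). Atp2b3, known from brain, measured 0.02 (-0.26 to 0.30). Within each array the log2 value of Atp2b4 minus that of Atp2b1 was -1.56 to -1.43 in control and -2.13 to -1.54 with miR-222, a difference of -0.31 (-0.20 without treated replicate 3). The offset itself is one between probe sets and not between amounts of transcript. The exact 2-sided permutation p was 0.0571, where 4 against 4 arrays can give no less than 0.0286, and the adjusted p over the 2 pairs compared was 0.0571, so unequal change of the pair was not shown.

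**Figure D3:**
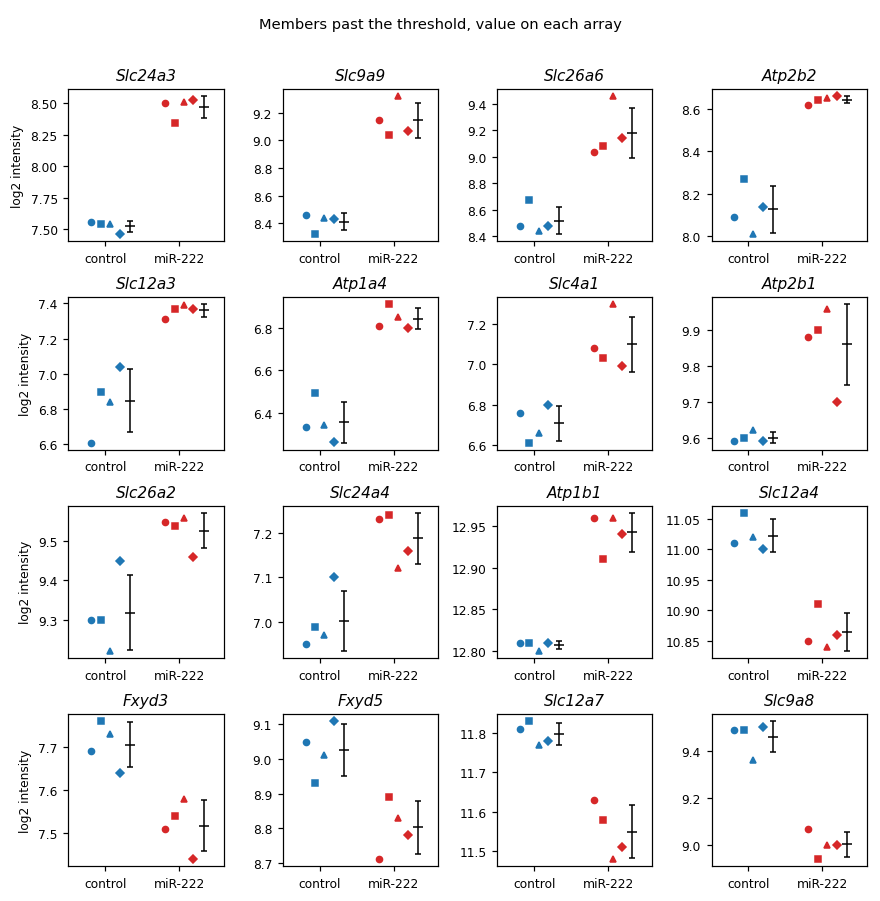
Log2 intensity on each array (y axis, a scale of its own in each panel) of the 16 members past the threshold, in control (blue) and miR-222 (red); symbols mark replicates 1 to 4 (circle, square, triangle, diamond) and black marks give mean and SD. The groups do not overlap in any panel, and the margin is widest for Slc24a3 and narrow for Slc26a2 and Slc24a4.

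Intracellular pH rests on sodium-proton exchange (Slc9) and bicarbonate transport (Slc4). Of 17 measured members 2 rose, 1 fell and 14 did not pass, with a median of -0.03. Calls made up 17.6% of them, against 24.7% of all genes. Slc9a9, an exchanger of late recycling endosomes, read 8.46, 8.32, 8.44 and 8.43 in control and 9.15, 9.04, 9.32 and 9.07 with miR-222. Treated replicate 3 was the highest, and all 4 were above the controls. The rise was 0.73 (SE 0.07, adjusted p = 3.57e-04).

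Slc9a8, an exchanger of the Golgi apparatus, moved the other way. It read 9.49, 9.49, 9.36 and 9.50 in control and 9.07, 8.94, 9.00 and 9.00 with miR-222. Control replicate 3 was lower than the other controls and still above every treated array. The difference was -0.45 (SE 0.05, adjusted p = 6.78e-04), between -0.49 and -0.43 with any single array left out. The epithelial and neuronal members of the plasma membrane, Slc9a2 at 0.10, Slc9a3 at -0.08, Slc9a4 at 0.08 and Slc9a5 at 0.02, and the Golgi member Slc9a7 at -0.04 were all dim and did not pass. Slc9a2 had the widest interval of them, -0.25 to 0.45.

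Slc4a3 encodes the chloride-bicarbonate exchanger AE3, which heart muscle uses to shed base. It read 10.55, 10.58, 10.52 and 10.51 in control and 10.40, 10.49, 10.49 and 10.48 with miR-222. The groups did not overlap, by a margin of hundredths, and treated replicate 1 was the lowest. The difference of -0.07 (95% interval -0.17 to 0.02, adjusted p = 0.278) did not pass. The electrogenic sodium-bicarbonate cotransporter gene Slc4a4 measured -0.12 (-0.25 to 0.02) and its electroneutral relative Slc4a7 0.18 (0.05 to 0.30, adjusted p = 0.0652). The call of Slc4a7 was reached when p-values were adjusted over genes only, with array weights or with the dimmest 40% of probe sets left out (adjusted p = 0.0388, 0.0381 and 0.0282).

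Slc4a1, the anion exchanger of red cells known as band 3, was the Slc4 member that passed. It was dim, at 6.76, 6.61, 6.66 and 6.80 in control and 7.08, 7.03, 7.30 and 6.99 with miR-222. All treated arrays were above the controls, and replicate 3 was the highest. The rise was 0.39 (SE 0.08, adjusted p = 0.00956). The 3 measured red cell markers, Hbb, Alas2 and Epb42, did not pass and had a summed intensity of 650 to 845 in control and 668 to 930 with miR-222. Their differences were -0.04 (95% interval -0.31 to 0.24), 0.08 (-0.22 to 0.39) and -0.01 (-0.37 to 0.35). Alas2 and Epb42 were dim, with control means of 6.43 and 7.37. Whether red cells had a part in the rise of Slc4a1 was not tested. Slc4a2, found in most tissues, measured -0.03 (-0.20 to 0.14), and Slc4a5, Slc4a8, Slc4a9, Slc4a10 and Slc4a11 lay between -0.14 and 0.07 and did not pass.

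Of 8 measured cation-chloride cotransporters 1 rose, 2 fell and 5 did not pass. That is 37.5% called, against 24.7% of all genes, and the median difference was 0.20. The members that fell were potassium-chloride cotransporters, which let chloride and water out of a swollen cell. Slc12a7, which encodes KCC4, went from 11.81, 11.83, 11.77 and 11.78 to 11.63, 11.58, 11.48 and 11.51. Its groups were clearly apart, and the difference was -0.25 (SE 0.05, adjusted p = 0.00662). Slc12a4, which encodes KCC1, went from 11.01, 11.06, 11.02 and 11.00 to 10.85, 10.91, 10.84 and 10.86, a difference of -0.16 (SE 0.04, adjusted p = 0.0232). Its groups were apart too, but the call ended when any of control replicates 1, 2 and 3 or of treated replicates 1 and 4 was left out (adjusted p = 0.0226 to 0.0697 over the 8 arrays left out). The neuronal relative Slc12a5, which encodes KCC2, was dim and measured 0.21 (0.02 to 0.39, adjusted p = 0.119).

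The sodium-coupled cotransporters of the family bring chloride in. Slc12a3, the thiazide-sensitive cotransporter of the kidney, was dim and went from 6.61, 6.90, 6.84 and 7.04 to 7.31, 7.37, 7.39 and 7.37. The treated arrays lay close together above scattered controls. The rise was 0.51 (SE 0.09, adjusted p = 0.00443). Slc12a2, which encodes NKCC1, the widely used sodium-potassium-chloride cotransporter, went from 9.37, 9.27, 9.30 and 9.15 to 9.46, 9.54, 9.37 and 9.57. Treated replicate 3 reached no higher than control replicate 1, and the other 3 treated arrays were above all controls. The difference of 0.21 (95% interval 0.06 to 0.36) did not pass (adjusted p = 0.0581), whereas it passed without miR-222 replicate 3 at 0.25 (adjusted p = 0.0382). It passed as well with dim probe sets left out, with an intensity trend and when adjusted over genes only (adjusted p = 0.0259, 0.0272 and 0.0348). Slc12a1, the loop diuretic-sensitive cotransporter of the kidney, measured 0.32 (adjusted p = 0.0593), Slc12a9 0.20 (adjusted p = 0.0539) and Slc12a8 0.11 (adjusted p = 0.495).

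Within each array the log2 value of Slc12a2 minus that of Slc12a4 was -1.85 to -1.64 in control and -1.47 to -1.28 with miR-222. The groups did not overlap, and the difference within the array was 0.37 higher with miR-222, so the 2 values lay closer together. The exact 2-sided permutation p was 0.0286, the smallest that 4 against 4 arrays allow, and the adjusted p over the 2 pairs compared was 0.0571. After that adjustment the unequal change of an importer and an exporter of chloride did not pass. Over 2 pairs even the smallest p can pass only if the other pair reaches it too. The adjusted test could therefore not decide on this pair alone.

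The Slc26 family exchanges anions such as chloride, bicarbonate, sulfate and oxalate. Of 10 measured members 2 rose and 8 did not pass, with a median of 0.01. This is 20% called, against 24.7% of all genes. Slc26a6, a chloride-bicarbonate and oxalate exchanger that is abundant in heart, read 8.48, 8.67, 8.44 and 8.48 in control and 9.04, 9.08, 9.46 and 9.14 with miR-222. Replicate 3 was the highest treated array and replicate 2 the highest control, and the groups were well apart. The rise was 0.66 (SE 0.10, adjusted p = 0.00286), and 0.57 was the lowest value with any single array left out.

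Slc26a2, the sulfate transporter that cartilage needs, read 9.30, 9.30, 9.22 and 9.45 in control and 9.55, 9.54, 9.56 and 9.46 with miR-222. The highest control and the lowest treated array, both replicate 4, nearly met. The rise was 0.21 (SE 0.06, adjusted p = 0.0334), and leaving out any array other than these replicates 4 ended the call (adjusted p = 0.0139 to 0.0864). The members known from gut, inner ear, testis, lung and kidney, Slc26a1, Slc26a3, Slc26a4, Slc26a5, Slc26a7, Slc26a8, Slc26a9 and Slc26a10, lay between -0.12 and 0.13 and did not pass.

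Over all members, 28 had a mean below the lowest array median and 29 above the highest, and the called members were 5 and 11 of these. Slc24a3 is among the 11, though its control mean of 7.52 lay below the medians. Over all genes 5716 had a mean below the lowest array median and 8512 above the highest, and 362 and 3173 of these were called. For the 42 members that did not pass, the 95% interval lay within 1.5-fold in either direction in 41. The exception was Atp1b4, whose interval reached down to -0.60. In 9 of the 42 members a call was reached in at least 1 alternative processing. With a single array left out these included, beside Atp1b4 and Slc12a2, Slc24a2 and Slc12a5 without control replicate 4 (adjusted p = 0.0456 and 0.0409), Slc12a9 without control replicate 1 (adjusted p = 0.0473) and Slc12a1 without miR-222 replicate 1 (adjusted p = 0.0181).

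The carriers work under scaffolds, kinases and hormone receptors, and 35 of 41 such genes from a list of regulators were measured. Of these 7 rose, 2 fell and 26 did not pass, which is 25.7% against 24.7% of all genes. The thyroid hormone receptor genes Thrb and Thra, whose hormone is known to raise sodium pump levels in heart, both rose, Thrb by 0.94 (SE 0.08, adjusted p = 1.84e-04) and Thra by the smaller amount of 0.24 (SE 0.04, adjusted p = 0.00308). Ahcyl1 encodes IRBIT, a partner of sodium-bicarbonate cotransporters, and rose by 0.30 (SE 0.04, adjusted p = 0.00152). Its relative Ahcyl2 rose by 0.92 (SE 0.06, adjusted p = 7.33e-05). For Ahcyl2 the arrays read 8.14, 8.28, 8.18 and 8.33 in control and 9.23, 9.15, 9.19 and 9.05 with miR-222, and for Thrb 8.23, 8.27, 8.24 and 8.30 against 9.06, 9.18, 9.43 and 9.14. In both, the groups were far apart.

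Car2, a carbonic anhydrase that makes bicarbonate and protons, rose by 0.36 (SE 0.07, adjusted p = 0.00709). The scaffold gene Nherf1, whose protein binds Slc9a3, rose by 0.24 (adjusted p = 0.0266) and Cab39l, a partner of the kinases that act on Slc12 carriers, by 0.23 (adjusted p = 0.024). Ank3, which encodes ankyrin-G, measured -0.18 (adjusted p = 0.0348) and the mineralocorticoid receptor gene Nr3c2 -0.23 (adjusted p = 0.0318), and both passed as lower. These last 4 calls were each lost with several of the single arrays left out (adjusted p up to 0.0636 for Cab39l, 0.068 for Nherf1, 0.0853 for Ank3 and 0.0889 for Nr3c2), and the 2 lower regulators became 0 in limma when any control array or treated replicate 1 was left out, and 1 with treated replicate 4 left out, where 3 to 5 were lower at an unadjusted p under 0.05. Centring each array on its median also ended the calls of Cab39l and Nherf1 (adjusted p = 0.0642 and 0.0747), and quantile normalization ended that of Nherf1 (adjusted p = 0.0677). The kinase genes Wnk1, Wnk4, Stk39 and Oxsr1, which act on the Slc12 carriers, measured 0.06, 0.17, -0.04 and -0.09 and did not pass.

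**Figure D4:**
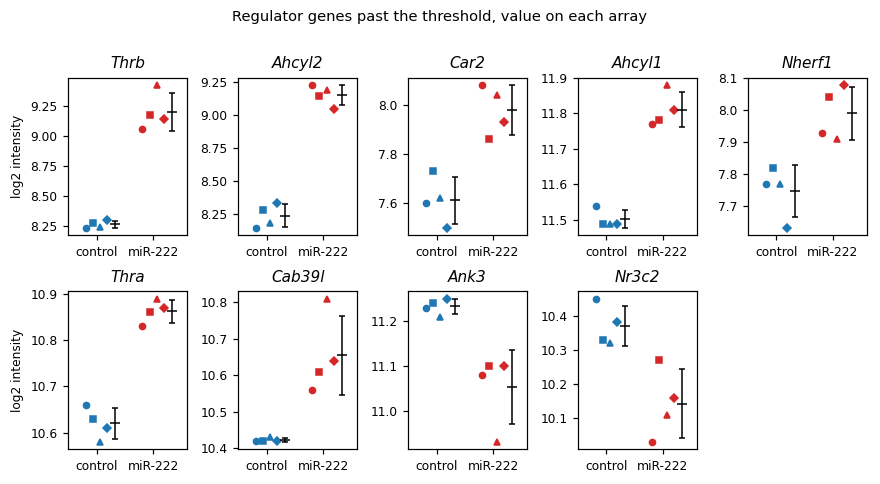
Log2 intensity on each array (y axis, a scale of its own in each panel) of the 9 regulator genes past the threshold, in control (blue) and miR-222 (red); symbols mark replicates 1 to 4 (circle, square, triangle, diamond) and black marks give mean and SD. Thrb and Ahcyl2 show the widest gaps, and in Cab39l and Ank3 treated replicate 3 stands apart from the other treated arrays.

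**Figure D5:**
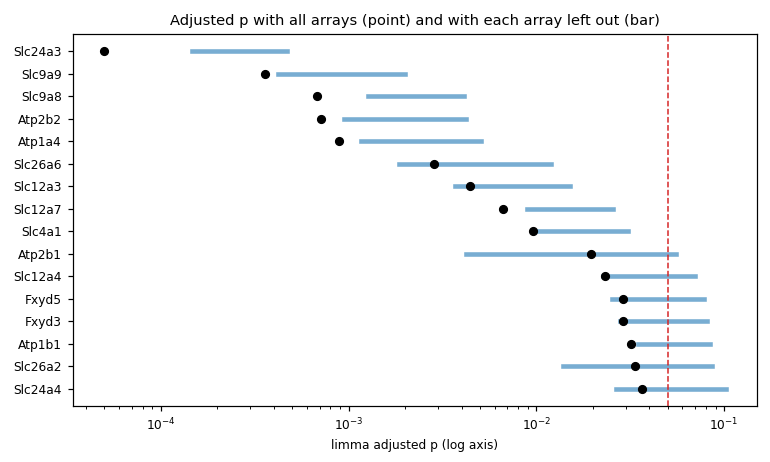
Adjusted p of limma (x axis, log scale) for the 16 called members with all 8 arrays (black point) and its range with each array left out in turn (blue bar); the red dashed line is the threshold of 0.05. The bars of 9 members stay left of the line and those of 7, from Atp2b1 to Slc24a4, cross it.

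The 9 members whose calls held without any single array were Slc24a3, Slc9a9, Slc9a8, Atp2b2, Atp1a4, Slc26a6, Slc12a3, Slc12a7 and Slc4a1. They were called in each of the other alternatives in which they were tested as well. Of these 9, 7 rose and 2 fell. Over all genes 47.3% of the calls with all 8 arrays were higher. The share of those calls that held without any single array is not given here. Whether these 9 members differ from other genes in direction was not tested. Atp1a4, Slc12a3 and Slc4a1 were dim. Slc24a3 was dim in control only, with a mean of 7.52 there, below every array median, and 8.47 with miR-222.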

How the data were processed

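RNA of 8 samples was measured on 1-colour Affymetrix arrays. The authors deposited intensity values on a linear scale, from 0.8 to 16339, whose background correction and normalization between arrays are not given in the sources used here. The identifiers pair with the annotation of another rat array than the series text gives. Array medians were 209, 207, 202 and 217 in control and 208, 219, 211 and 211 with miR-222, so arrays are on 1 scale and not centred by gene. Replicates are numbered in listing order.

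Values were taken as log2. Of 29170 probe sets 15310 paired with 1 gene and 323 with several, and each gene was represented by its brightest probe set. The 2 groups were compared over all probe sets with limma 3.58.1 (lmFit, eBayes) in R 4.3.3, with Benjamini-Hochberg adjustment over all of them. The fit was also run on simulated data with known shifts and with noise drawn independently for each array. The outcome of that run is not given here. Of 5 planned comparisons of paired members 2 were run (exact permutation, scipy 1.17.1). All 58 members were found by gene identifier in RefSeq. Members and lists were chosen with earlier results of these data known. All members are reported. Values on every array are given for those past the threshold and for Fxyd1, Slc4a3, Slc12a2 and Atp2b4, listed as known from heart. Alternatives are described in the closing section.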

Additional observations from a re-analysis of the deposited data

Results flagged for a closer look

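In each group of 4 arrays the highest and the lowest value were compared with the rest by the 95% limit of Dixon's test, for the members, Slc8a1 and the called regulators. Of 136 groups 10 (7.35%) had an array beyond the limit, where chance gives about 1 in 20. Among called members these were Slc24a3, with miR-222 replicate 2 at 8.34 against 8.50 to 8.53 in the others, and Slc9a8, with control replicate 3 at 9.36 against 9.49 to 9.50. Both arrays lie on the side of the other group, and both calls held without them.

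In members that did not pass, control replicate 2 of Slc9a2 read 6.38 against 5.80 to 5.84, control replicate 4 of Slc4a2 9.26 against 9.42 to 9.45, and control replicate 4 of Slc26a4 6.61 against 6.48 to 6.51. In the miR-222 group, replicate 1 of Slc4a3 read 10.40 against 10.48 to 10.49, and replicate 4 of Slc4a7 9.08 against 8.96 to 8.98. Among regulators, control replicate 1 of Ahcyl1 read 11.54 against 11.49 in the other 3, miR-222 replicate 3 of Ank3 10.93 against 11.08 to 11.10, and control replicate 3 of Cab39l 10.43 against 10.42, a gap of about a hundredth.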

How the results depend on the processing

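The alternatives were each array left out, arrays centred on their medians, quantile normalization, log2(value + 16), only probe sets above the 40th percentile of mean level, an intensity trend with robust variances, array weights, the mean of all probe sets of a gene, and adjustment over genes only. In limma 0 of the called members and regulators changed sign in these alternatives, while the estimates of 12 members that did not pass, all within 0.10 of 0, changed sign in at least 1. With 1 array left out, 7 to 12 members were higher and 2 to 5 lower, and 5 to 7 regulators were higher and 0 to 3 lower. Under the other alternatives 9 to 15 members were higher and 5 or 6 lower. Of the 16 called members 9 kept the call in every alternative that tested them. The filter on dim probe sets left 31 members to test. The pair difference of Slc12a2 and Slc12a4 was 0.33 to 0.40 with 1 array left out, and that of Atp2b4 and Atp2b1 -0.40 to -0.20. No scaling moved the median of all genes by more than a few hundredths. Centring each array on its median still changed the calls over all genes. The share called went from 24.7% to 21.1%, and the higher genes went from 47.3% to 39% of the calls. No paired analysis was possible because the labels give no replicate numbers. Signal over background limits the dim members, for which no detection calls were used.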
